A study of Rattus norvegicus with 12 samples.

Results

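Between day 7 and day 14 after complete spinal cord transection, gene lists that stood high in the rat bladder at day 7 fell steeply: mitosis, DNA replication, collagens and other matrix, and endothelial markers. Over the same week 10 of 28 urothelial genes were called higher (against 7.59% of all genes tested). Of 22 macrophage genes, 8 were called lower (against 12.0%). None of 18 T and NK cell genes or 27 interferon genes was called, against 19.5% of all genes in either direction. Among 38 chemokine and cytokine genes, 4 were called lower and 2 higher, against 12.0% and 7.59%. The comparison set the 3 bladder libraries of day 14 against the 3 of day 7, that is 6 of the 12 libraries in the series. Levels in 3 libraries of normal bladder are given as a reference and were not tested. All rats were female Wistar rats aged 10 to 12 weeks. The day-7 and day-14 rats had had a complete transection at T10, a thoracic level, that spared the dura (the design text gives T9-T10), and the controls were called normal, with no sham operation named. The controls and a further 3 libraries from day 28 were in the same fit. They therefore shared in the choice of genes to test, the scaling and the estimated spread of each gene. The design text counts 20 rats in 4 groups, but the labels do not tie a library to a rat, so the p-values measure the spread between these libraries, which may be partly technical. The model is limited to 1 strain, 1 sex and a complete lesion, and each library is bladder tissue with its layers not separated. In such bulk tissue, fewer cells of a type and less RNA per cell cannot be told apart.

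The bladder wall consists of a stratified lining (the urothelium), a connective tissue layer with vessels and nerves, and the smooth muscle that empties the organ. When the cord is cut, voiding first fails, the bladder overfills, and the wall responds with cell division, growth and new matrix. A spinal reflex that empties the bladder emerges later. Genes of mitosis, DNA replication, collagen synthesis and vessel growth therefore mark a wall under active remodelling, whereas keratins and uroplakins mark the lining.

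RNA depleted of ribosomal RNA had been read as single 50-base reads, and each of the 9 libraries held between 26275314 and 30747936 reads counted in genes. Urothelial and smooth muscle markers were high in every library: the urothelial list summed to between 7535 and 13650 CPM (the usual counts-per-library-size unit, here after TMM scaling), and the contractile list to between 41460 and 65840 CPM. Some single libraries stood apart. Day-7 replicate 3 gave 2.89% of its reads to haemoglobin genes, against 0.156% and 0.370% in the other day-7 libraries and 0.0341 to 0.0770% at day 14. Day-7 replicate 1 was the library with the most contractile RNA. Day-14 replicate 3 had summed neutrophil markers of 313 CPM, against 63.6 and 35.1 CPM in replicates 1 and 2. Mitochondrially encoded genes took 4.29 to 4.86% of reads at day 7 and 5.55 to 6.52% at day 14.

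Of 40154 genes in the table, 17687 had enough reads to test. Comparing the groups, edgeR's quasi-likelihood test called 3457 genes at a Benjamini-Hochberg adjusted p under 0.05, or 19.5% of those tested. Of these, 1343 were higher at day 14 (7.59%) and 2114 were lower (12.0%). Each count of list members called below is to be read against these shares. Large changes were mostly falls. A log2 fold change of at least 1 was reached by 301 of the genes called higher (1.70% of genes tested), while 1169 of the genes called lower fell at least as far (6.61%). The median log2 fold change of all genes tested was 0.01 after TMM scaling. The day-14 libraries did not overlap those of day 7 in 6198 of the 17687 genes tested. That held for 1314 of the genes called higher and 2055 of those called lower, so a lack of overlap is usual for a called gene. Every adjusted p below is from this test, adjusted over all genes tested, unless another fit is named. The plot of fold change against level shows the falls reaching further than the rises.

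**Figure D1:**
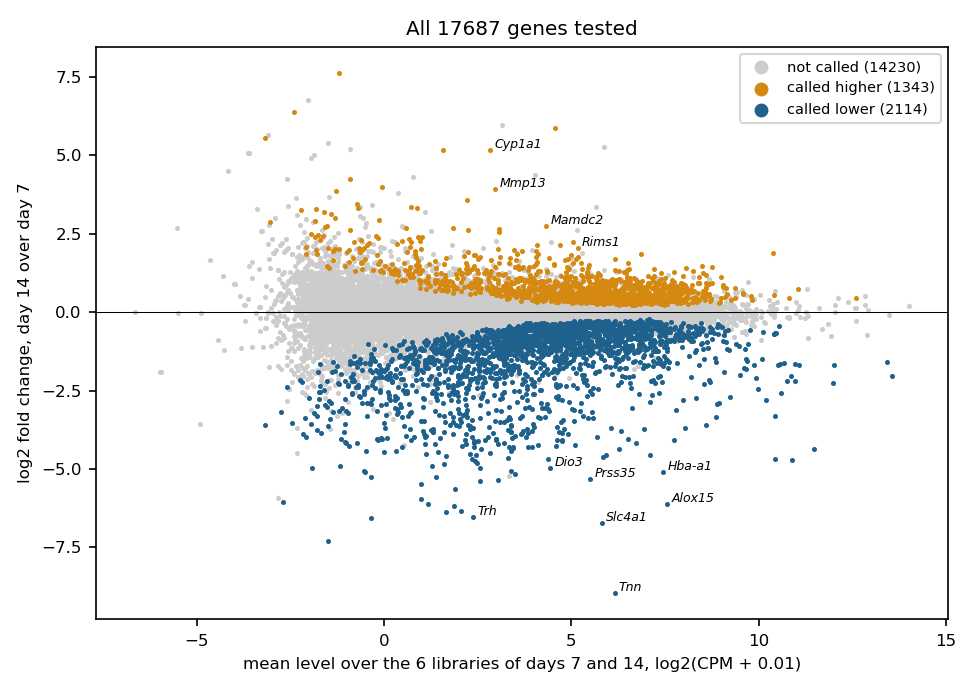
Each point is 1 of 17687 genes, with the mean level over the 6 libraries of days 7 and 14 on the x axis (log2 of CPM plus 0.01) and the log2 fold change of day 14 over day 7 on the y axis. Genes called lower (2114, blue) extend to -8.95 for Tnn, and among genes called higher (1343, orange) Cyp1a1 is labelled at 5.16.

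The 12 largest falls among genes with a mean of at least 5 CPM and groups that did not overlap came from a few recognisable sources. Tnn encodes tenascin-N, a matrix glycoprotein of bone and of remodelling tissue (chromosome 13, 77829384 to 77896831 in the authors' rn6 coordinates). It had 20.3, 248 and 159 CPM at day 7 and 0.328, 0.447 and 0.0708 CPM at day 14, with 0.143 ± 0.0621 CPM (SD, n = 3) in controls. Its log2 fold change was -8.95 ± 0.93 (SE, adjusted p = 2.4e-04). Trh, the precursor of thyrotropin-releasing hormone, stood at 2.53, 13.7 and 14.5 CPM at day 7 and at 0, 0.241 and 0.0708 CPM at day 14. Only 9 reads were counted over the 3 day-14 libraries, against 864 at day 7, a ratio of 88.7 (95% exact interval 46.5 to 195, counting error only). Dio3, the deiodinase that inactivates thyroid hormone, fell by 4.96 ± 0.68 on the log2 scale (adjusted p = 7.9e-04), from 9.9, 57.4 and 59 CPM to 0.910, 2.23 and 0.885 CPM. Prss35, a serine protease, went from 37, 118 and 110.2 CPM to 0.509, 4.16 and 1.95 CPM (log2 fold change -5.32 ± 0.88, adjusted p = 0.0023). That no day-14 library of these 4 genes reached a day-7 library was required by the choice. Day-7 replicate 1 was the lowest of its group in each.

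The other falls of that size were greatest in single day-7 libraries. Slc4a1, Add2, Ank1 and Hba-a1 are red blood cell genes, and Alox15 is a lipoxygenase of macrophages and eosinophils that also acts in maturing red cells. All 5 were highest in day-7 replicate 3, the library rich in haemoglobin reads. Alox15, for example, had 8.84, 105 and 1001 CPM in the day-7 libraries and 3.86, 8.35 and 3.86 CPM at day 14, and Slc4a1 had 5.94, 27.3 and 299 CPM and 0.801, 1.86 and 0.460 CPM. Without that library the log2 fold changes shrank to -3.97 for Slc4a1, -3.39 for Alox15 and -3.23 for Hba-a1, which stayed called. Those of Add2 (-2.83, adjusted p = 0.065) and Ank1 (-2.46, adjusted p = 0.11) were then no longer called. Both calls were also lost without day-14 replicate 1 (adjusted p 0.057 and 0.067), and that of Ank1 without day-14 replicate 3 (adjusted p = 0.058). Of the 12 erythroid genes tested, 10 were called lower, with a median log2 fold change of -4.65. The median was -2.28 without day-7 replicate 3, and 6 were called without day-14 replicate 1. The erythroid genes summed to 1677, 4014 and 32890 CPM at day 7, to 580, 784 and 357 CPM at day 14 and to 638 to 2838 CPM in controls, and the part of blood content in these falls was not tested. Haemoglobin genes are near-identical copies, and how reads were divided among them is uncertain, as it is for Add2 and Ank1, which overlap loci on the opposite strand. Adipoq, the fat cell hormone adiponectin, was highest in day-7 replicate 1 (43.9, 7.86 and 9.2 CPM at day 7, 0.0364, 0.825 and 0.921 CPM at day 14). Its call was lost without that library (log2 fold change -3.82, adjusted p = 0.052) or without day-14 replicate 1 (adjusted p = 0.059).

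The 12 largest rises chosen in the same way were smaller. Cyp1a1, a cytochrome P450 that the aryl hydrocarbon receptor switches on, had 0.733, 0.209 and 0.217 CPM at day 7, 7.21, 26.1 and 8.14 CPM at day 14 and 64.8 ± 39.6 CPM (SD, n = 3) in controls. Its log2 fold change of 5.16 ± 1.12 corresponds to a 35.6-fold rise (adjusted p = 0.009, chromosome 8, 62472087 to 62478122). Ihh, the secreted signal Indian hedgehog, had 3.37, 1.95 and 2.1 CPM at day 7 and 16.9, 20.9 and 5.28 CPM at day 14 (log2 fold change 2.54 ± 0.47, adjusted p = 0.0039). Mamdc2, a matrix proteoglycan, had 11.7, 2.82 and 1.2 CPM at day 7 and 39.5, 27.6 and 37.6 CPM at day 14. Day-7 replicate 1 was its highest at that time, and without it the log2 fold change of 2.74 became 4.12. Kcnf1 (a silent potassium channel subunit, log2 fold change 2.66), Rims1 (a scaffold of secretory release sites, 2.03), Sult1a1 (a phenol sulfotransferase, 2.13), Rgs1 (a brake on G-protein signals, 1.94) and Dnah9 (a dynein of motile cilia, 1.95) were called higher with adjusted p between 1.0e-04 (Dnah9) and 0.01 (Sult1a1). These 5 stayed called whichever library was left out.

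Of the remaining large rises, Mmp13, a collagen-cutting protease, was at 0.917, 1.04 and 0.905 CPM at day 7 and 10.5, 2.72 and 30.8 CPM at day 14, against 1.48 ± 0.102 CPM in controls. All of its day-14 libraries exceeded the control mean (log2 fold change 3.93 ± 1.07, adjusted p = 0.026). The call was lost without day-14 replicate 3 (log2 fold change 2.79, adjusted p = 0.083) or without any single day-7 library (adjusted p 0.065 to 0.082). Krt23, a keratin, was highest in the same day-14 library (21.6, 19.9 and 84.7 CPM at day 14, 11, 6.88 and 11.1 CPM at day 7). Without that library its log2 fold change dropped from 2.13 to 1.12 (adjusted p = 0.057), and it was also lost without day-7 replicate 2 (adjusted p = 0.076). Fhod3, an actin nucleator of muscle, lost its call without day-7 replicate 2 or 3 or day-14 replicate 1 (adjusted p 0.061 to 0.069), and without day-7 replicate 1 its log2 fold change of 2.24 became 3.63.

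Genes of cell division fell together. All 33 genes of mitosis tested were called lower, with a median log2 fold change of -3.67, against 12.0% of all genes. Their median level relative to the controls, as a log2 ratio of mean CPM, was 3.71 at day 7 and -0.06 at day 14, both set against the same 3 control libraries. Mki67, the proliferation antigen Ki-67, had 151, 230.2 and 225 CPM at day 7, 14.2, 6.98 and 12.5 CPM at day 14 and 11.2 ± 5.22 CPM (SD, n = 3) in controls. Every day-14 library was far below every day-7 library, and the log2 fold change was -4.17 ± 0.48 (adjusted p = 3.5e-04). Top2a, the topoisomerase that untangles replicated chromosomes, went from 82, 107 and 101 CPM to 5.06, 5.12 and 8.32 CPM (log2 fold change -3.97 ± 0.52, adjusted p = 6.5e-04). Cyclin B1 (Ccnb1), which drives entry into mitosis, went from 26.8, 31.4 and 29.6 CPM to 1.42, 1.14 and 1.91 CPM (log2 fold change -4.29 ± 0.59). The spindle checkpoint kinase Bub1b had the largest fall of the list (-4.43 ± 0.59). Kif23, a kinesin of cell separation, had the smallest: 43.5, 53.9 and 58.5 CPM at day 7, 32, 27.4 and 30.7 CPM at day 14 and a log2 fold change of -0.79, whose call was lost without day-7 replicate 3 (adjusted p = 0.051). Between 29 and 33 members were called in the other settings run.

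Some of the smallest p-values in the list came from genes whose libraries lay close together. Ube2c, the ubiquitin carrier of the anaphase-promoting complex, held 18.2, 19.5 and 23 CPM at day 7 and 1.05, 1.27 and 1.45 CPM at day 14. Cenpe, a kinesin that lines up chromosomes, held 44.9, 49.3 and 43 and then 3.49, 3.51 and 3.79 CPM. Tpx2, a spindle assembly factor, held 52, 57.6 and 58.9 and then 3.27, 4.64 and 3.44 CPM, and anillin (Anln), which scaffolds the cleavage furrow, 201, 180.5 and 143 and then 16, 25.5 and 21.9 CPM. Within each day the 3 libraries of these genes spread far less than the days differed.

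The promoters of such genes are known to carry a CCAAT box, bound by the factor NF-Y, and a cell cycle homology region, through which the DREAM and MuvB complexes hold them silent outside mitosis. RefSeq promoters, from 250 bases before to 50 bases after the annotated start (build GRCr8), could be matched to 12502 of the 17687 genes tested. The 3 mitotic genes called lower with the smallest p that held both motifs are shown because they carry both patterns close to the start. Each reads 5′ to 3′ on the strand of the gene, and capitals mark CCAAT and TTTGAA, or their reverse complements ATTGG and TTCAAA.
Ect2: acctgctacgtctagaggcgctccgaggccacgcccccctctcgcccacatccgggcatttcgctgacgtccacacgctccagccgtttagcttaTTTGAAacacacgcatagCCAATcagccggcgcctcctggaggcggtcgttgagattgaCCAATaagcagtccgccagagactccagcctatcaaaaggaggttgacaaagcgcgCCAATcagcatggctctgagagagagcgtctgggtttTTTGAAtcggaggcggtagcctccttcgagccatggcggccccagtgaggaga
Cdk1: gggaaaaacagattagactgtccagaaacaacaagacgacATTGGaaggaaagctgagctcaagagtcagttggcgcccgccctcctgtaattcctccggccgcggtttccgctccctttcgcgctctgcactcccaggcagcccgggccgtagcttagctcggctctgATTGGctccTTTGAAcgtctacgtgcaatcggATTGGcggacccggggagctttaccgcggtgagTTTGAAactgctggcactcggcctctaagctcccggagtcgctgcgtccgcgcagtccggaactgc
Cdc20: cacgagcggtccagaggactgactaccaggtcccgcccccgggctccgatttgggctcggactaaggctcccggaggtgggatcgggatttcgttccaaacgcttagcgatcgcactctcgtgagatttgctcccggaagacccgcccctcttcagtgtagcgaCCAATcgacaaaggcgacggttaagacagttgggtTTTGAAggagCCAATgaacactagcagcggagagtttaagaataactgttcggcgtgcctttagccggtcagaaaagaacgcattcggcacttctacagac
Ect2 organises the contractile ring of dividing cells, and its promoter window is chr2:111966577-111966876 on the minus strand. That window has 3 CCAAT boxes and 2 TTTGAA matches, and Ect2 RNA went from 31.8, 39.4 and 36.8 CPM to 3.82, 3.64 and 3.15 CPM. Cdk1, the mitotic kinase (promoter window chr20:19265043-19265342, plus strand), has 3 boxes on the opposite strand and 2 TTTGAA matches. Its RNA went from 40.6, 53.3 and 52.1 CPM to 4.99, 3.99 and 3.9 CPM. Cdc20, an activator of the anaphase-promoting complex (promoter window chr5:137255750-137256049, minus strand), has 2 boxes and 1 TTTGAA match. Its RNA was at 19.6, 18.7 and 20.1 CPM at day 7 and 1.24, 1.41 and 2.12 CPM at day 14. In all 3 genes no day-14 library exceeded 4.99 CPM, and no day-7 library was under 18.7 CPM.

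Searched on both strands, CCAAT occurred in 74.1% of the 27 mitotic promoters matched and in 64.0% of the 25 DNA replication promoters, against 37.1% of the 12502 promoters of tested genes and 37.5% of all 33469 promoters in the table. TTTGAA occurred in 70.4% of the mitotic promoters but in 4.0% of the DNA replication promoters (1 of 25), against 12.7% of the promoters of tested genes and 18.3% of all. Both motifs together were in 55.6% of the mitotic promoters in 5.17% of those of tested genes and in 7.41% of all. Among genes called lower as a whole the shares were 40.9% for CCAAT and 15.5% for TTTGAA, and among genes called higher 35.9% and 10.4%. For the 175 promoters of genes that fell by a log2 fold change of 3 or more they were 54.9% and 36.6%. The interferon-stimulated element (GAAANNGAA, with N for any base) was in 6.52% of the promoters of genes called lower, 7.06% of those called higher, 7.64% of those tested and 9.71% of all. The CArG box of serum response factor was in 1.24%, 1.02%, 1.3% and 1.64% in the same order. A match is a description of these letters in this window and does not show binding.

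Genes that copy DNA fell as well. Of 30 tested, 27 were called lower and none higher, with a median log2 fold change of -1.59, and Cdc6, Prim1 and Lig1 did not pass. Cdc6, which loads the replicative helicase, was called without day-7 replicate 1 (log2 fold change -1.18 in place of -0.87, adjusted p = 0.0076). Their median log2 ratio to the controls was 1.63 at day 7 and -0.08 at day 14. Rrm2, which makes deoxynucleotides, had 46.9, 51 and 54.2 CPM at day 7, 1.78, 2.27 and 4.89 CPM at day 14 and 2.0 ± 1.01 CPM (SD, n = 3) in controls (log2 fold change -4.09 ± 0.49, adjusted p = 4.3e-04). Uhrf1, which copies DNA methylation marks, had 16.7, 25 and 31.9 and 1.97, 1.17 and 2.23 CPM (log2 fold change -3.78 ± 0.49, adjusted p = 6.2e-04). Tk1, thymidine kinase, had 26.4, 36.9 and 41.6 and 3.27, 2.48 and 6.87 CPM, and the transcription factor E2f1, which drives many of these genes, 14.5, 14.8 and 16 and 2.4, 2.3 and 2.76 CPM. In each of these 4 genes every day-14 library lay below every day-7 library, as in 2055 of the 2114 genes called lower. The number called ranged from 18 to 28 in the other settings.

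**Figure D2:**
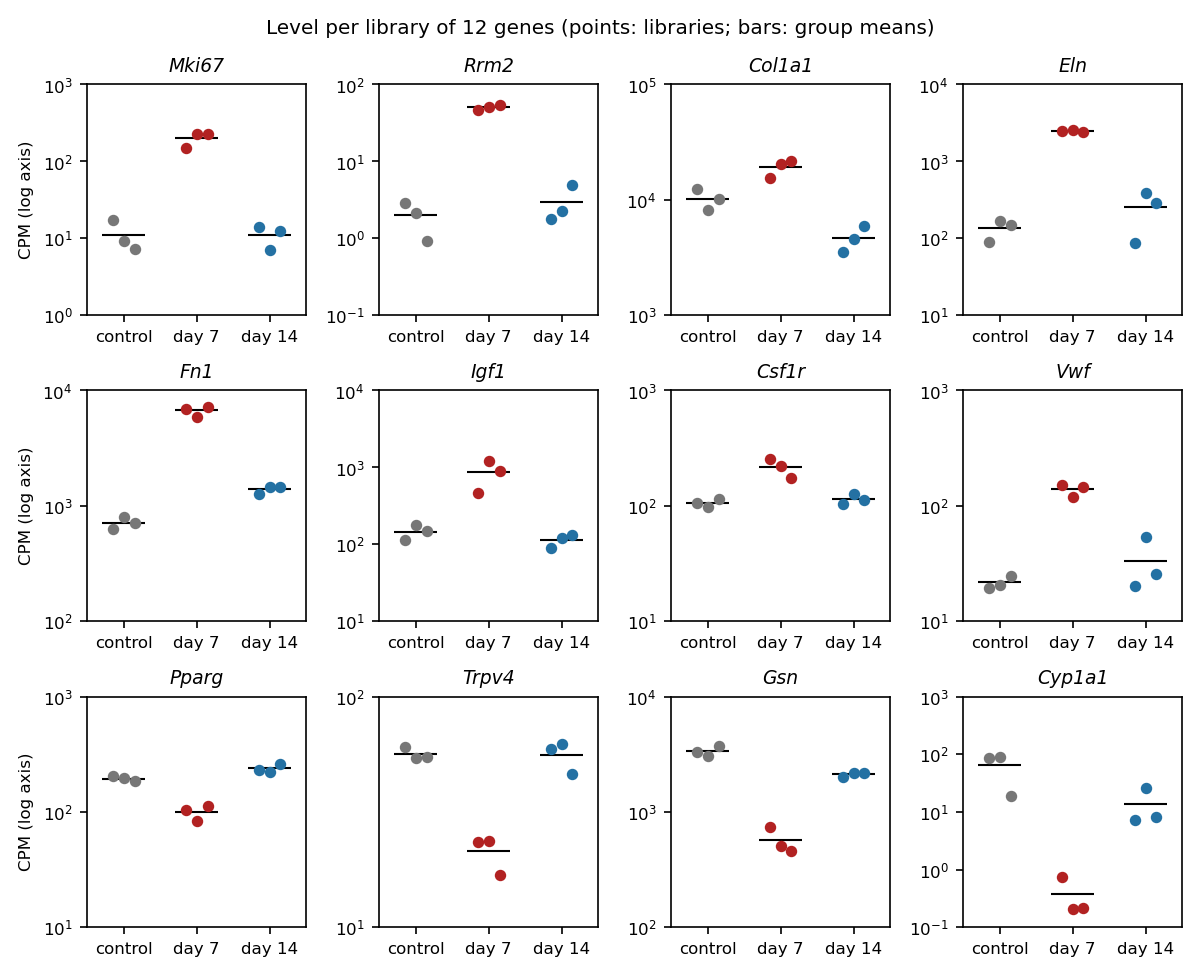
CPM per library on a log axis for 12 genes in control, day 7 and day 14 (3 libraries each, points; bars are group means). The 8 genes in the first 2 rows fell from day 7 to day 14, and the 4 genes of the bottom row (Pparg, Trpv4, Gsn, Cyp1a1) rose.

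Collagen genes fell almost as a block. Of 18 fibrillar and network collagens tested, 17 were called lower and none higher (median log2 fold change -1.76), and the exception was Col14a1. Col1a1, the main chain of type I collagen, had 15550, 20310 and 21810 CPM at day 7 and 3568, 4595 and 5959 CPM at day 14, while controls had 10270 ± 2049 CPM (SD, n = 3). All 3 day-14 libraries were thus below both the day-7 libraries and the control mean (log2 fold change -2.03 ± 0.32, adjusted p = 0.0017). Col3a1, the chain of type III collagen, had the same order: 14870, 18780 and 15420 CPM at day 7, 4192, 6186 and 6004 CPM at day 14 and 9503 ± 913 CPM in controls (log2 fold change -1.58 ± 0.27, adjusted p = 0.0029). Per transcript length, Col1a1 was at 6129 ± 799.7 TPM (the authors' length-scaled unit) at day 7 and at 1690 ± 411 TPM at day 14, and Col3a1 at 6422 ± 1077 and 2394 ± 438 TPM (mean ± SD, n = 3), so the difference between the pair was smaller than the spread at day 7. The largest fall belonged to Col11a1, a minor fibril chain that sets fibril width, with 155, 119 and 166 CPM and then 4.99, 9.49 and 6.73 CPM (log2 fold change -4.38 ± 0.79, adjusted p = 0.0036). Col12a1, which sits on fibril surfaces, fell from 1926, 2472 and 3497 to 344, 539 and 438 CPM. The basement membrane chains Col15a1 and Col18a1 fell by 1.27 ± 0.13 and 2.17 ± 0.22 on the log2 scale, with adjusted p of 2.4e-04 for each. Relative to controls the list's median log2 ratio was 1.77 at day 7 and -0.15 at day 14.

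The enzymes that fold, trim and crosslink collagen moved with it. Of 23 tested, 18 were called lower and none higher (median log2 fold change -1.21). Lysyl oxidase (Lox), which crosslinks collagen and elastin, had 458, 1046 and 1022 CPM at day 7, 61.2, 154 and 121 CPM at day 14 and 86.1 ± 6.67 CPM (SD, n = 3) in controls (log2 fold change -2.91 ± 0.50, adjusted p = 0.0028). Loxl2, a related oxidase, fell from 213, 212 and 266 to 35.9, 59.6 and 56 CPM, and Pcolce, which speeds the trimming of procollagen, from 215, 301 and 278 to 59.2, 82.9 and 102 CPM. The chaperone Fkbp10 (log2 fold change -1.77 ± 0.24) and the modifier P3h4 (-1.32 ± 0.18) had the same direction with adjusted p of 7.8e-04 and 7.0e-04. No day-14 library of these 5 genes reached the lowest day-7 library, as in 2055 of the 2114 genes called lower.

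Matricellular proteins, which sit in matrix under repair and signal to cells, fell too. Of 23 tested, 22 were called lower (median log2 fold change -2.64), and their median log2 ratio to controls went from 3.26 at day 7 to 0.48 at day 14. Fibronectin (Fn1) had 6981, 5920 and 7261 CPM at day 7, 1259, 1446 and 1473 CPM at day 14 and 718 ± 86 CPM (SD, n = 3) in controls, so that its day-14 libraries were still all above the control mean (log2 fold change -2.27 ± 0.30, adjusted p = 6.5e-04). Tenascin-C (Tnc) went from 1311, 1897 and 2913 to 269, 371 and 242 CPM, with 244 ± 58.1 CPM in controls, and periostin (Postn) from 1493, 1944 and 1661 to 315, 367 and 242 CPM, with 306 ± 28.7 CPM in controls. Both were therefore near the control level at day 14, where Fn1 was not. Osteopontin (Spp1), a macrophage and epithelial cytokine, went from 17, 31.3 and 34.5 to 0.946, 6.08 and 2.58 CPM against 0.142 ± 0.0708 CPM in controls (log2 fold change -3.10 ± 0.64, adjusted p = 0.0072). The small proteoglycan biglycan (Bgn) fell by 2.05 ± 0.25 on the log2 scale (adjusted p = 5.0e-04). Cilp, a matrix protein of cartilage and of scarring heart, had 1388, 628 and 534 CPM at day 7 and 15.2, 157 and 79.2 CPM at day 14 against 6.37 ± 1.15 CPM in controls, and its call was lost without day-14 replicate 3 (adjusted p = 0.051). Grem1, a secreted antagonist of bone morphogenetic proteins, had 189, 368 and 245 CPM at day 7, 31, 140.0 and 89.7 CPM at day 14 and 1.54 ± 0.338 CPM in controls. Its log2 fold change of -1.62 ± 0.49 passed narrowly (adjusted p = 0.037) and was lost without day-7 replicate 2 or 3, day-14 replicate 1 or 3, or any single control (adjusted p 0.052 to 0.14).

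Elastic fibre genes followed, with 12 of 16 called lower, none higher and a median log2 fold change of -1.28. Elastin (Eln), the elastic core itself, had 2494, 2575 and 2446 CPM at day 7, 87.3, 392 and 286 CPM at day 14 and 136 ± 39.9 CPM (SD, n = 3) in controls. The day-7 libraries lay close together while the day-14 libraries spread widely, and the log2 fold change was -3.30 ± 0.58 (adjusted p = 0.003). Fbn2, a fibrillin of growing tissue, fell from 42.3, 96.5 and 124 to 4.22, 13.1 and 7.83 CPM. Emilin1, which lies between elastin and microfibrils, fell by 1.56 ± 0.13 on the log2 scale, Efemp2 (fibulin-4) by 1.31 ± 0.14 and Ltbp1, which stores latent TGF-beta, by 1.04 ± 0.15. Their adjusted p were 1.0e-04, 2.9e-04 and 9.2e-04.

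Proteases and their inhibitors divided. Of 28 tested, 12 were called lower and 3 higher, against 12.0% and 7.59% of all genes. Without day-14 replicate 1, 7 were called lower, and 1 was called higher without any single day-7 library or day-14 replicate 3. Fap, the protease of activated fibroblasts, fell from 19.7, 28.7 and 22.6 to 4.59, 5.29 and 3.08 CPM, with 5.07 ± 1.24 CPM (SD, n = 3) in controls. Mmp19 (log2 fold change -1.29 ± 0.14) and Mmp23 (-1.77 ± 0.20) also fell, while Mmp28, an epithelial member of the family, rose from 58.5, 54.9 and 68.1 to 106, 109 and 119 CPM (log2 fold change 0.88 ± 0.10, adjusted p = 4.3e-04). The other 2 rises were Mmp12 and Mmp13. The call of Mmp12 was lost without any single day-7 library or without day-14 replicate 1 or 3 (adjusted p 0.054 to 0.068), and that of Mmp13 is described above. Timp1, the main inhibitor of these proteases, had 240.5, 760.4 and 868 CPM at day 7 and 61.2, 84.5 and 235 CPM at day 14, against 43.9 ± 8.54 CPM in controls. All 3 day-14 libraries were below the day-7 libraries and above the control mean, and day-14 replicate 3 was the highest of them (log2 fold change -2.29 ± 0.54, adjusted p = 0.013). With only the libraries of days 7 and 14 fitted, Timp1 was not called (adjusted p = 0.055).

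Signals of growth and fibrosis gave mixed directions. In the TGF-beta and BMP list, 11 of 29 genes were called lower and 2 higher (median log2 fold change -0.26), against 12.0% and 7.59% of all genes. The number called lower was 5 without day-7 replicate 3 or day-14 replicate 1, and 6 without day-7 replicate 2 or day-14 replicate 3. Tgfb1, the ligand that drives matrix synthesis, went from 72, 84 and 93.3 to 45.5, 40.2 and 53 CPM and remained above the controls at 26.1 ± 0.322 CPM (SD, n = 3), with a log2 fold change of -0.85 ± 0.12 (adjusted p = 0.0012). Inhba, the subunit of activin A, fell from 18.4, 43.5 and 66.4 to 7.39, 12.7 and 5.24 CPM (log2 fold change -2.34 ± 0.48). Bmp4 fell by 0.79 ± 0.12 on the log2 scale (adjusted p = 0.0012). The 2 genes that rose, Id1 and Id2, are transcriptional inhibitors that BMP signals switch on: Id2 had 28.8, 21.1 and 21.6 CPM at day 7, 80.5, 49.8 and 60.8 CPM at day 14 and 77.5 ± 6.32 CPM in controls. Id1 rose by a log2 fold change of 0.79 ± 0.14 (adjusted p = 0.003).

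Among 26 growth factor genes, 9 were called lower and 3 higher, against 12.0% and 7.59% of all genes. Igf1, insulin-like growth factor 1, had 468, 1218 and 897 CPM at day 7 and 89.3, 123 and 131 CPM at day 14, where all 3 libraries lay under the control mean of 147 ± 31.8 CPM (SD, n = 3). Its log2 fold change was -2.91 ± 0.40 (adjusted p = 7.8e-04). Its binding protein Igfbp4 fell from 570.4, 668 and 752 to 112, 127 and 208 CPM. Igfbp3, another carrier, had the opposite order, with 57.5, 60.5 and 60.5 CPM at day 7, 137, 60.1 and 146 CPM at day 14 and 728 ± 113 CPM in controls. Day-14 replicate 2 was within the day-7 range, and the call was lost without any single day-7 library or without day-14 replicate 1 or 3 (adjusted p 0.060 to 0.093). Pdgfb fell by 1.76 ± 0.30 on the log2 scale (adjusted p = 0.0026). Vegfa, the vessel growth factor, rose from 61, 53 and 65.1 to 91.3, 73 and 103 CPM (log2 fold change 0.57 ± 0.13, adjusted p = 0.0092).

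**Figure D3:**
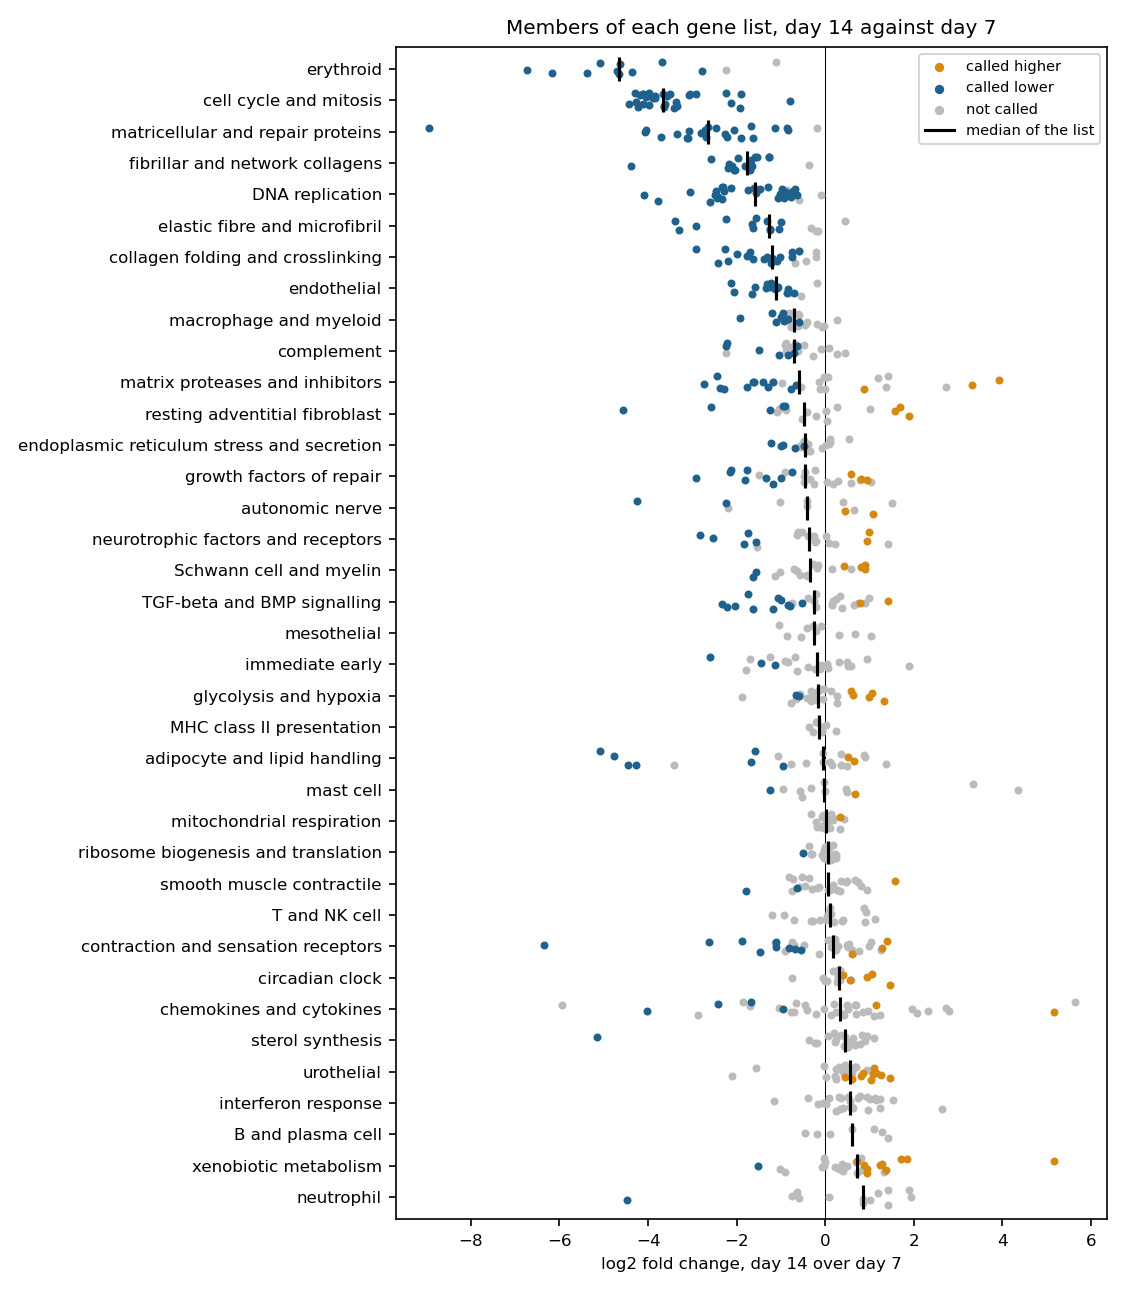
Log2 fold change of day 14 over day 7 for the tested members of 37 gene lists (points: genes, coloured by call; black bars: list medians). The list medians run from -4.65 for erythroid genes and -3.67 for mitosis to 0.85 for neutrophil genes, of which 1 of 13 was called and whose median was -1.57 without day-14 replicate 3.

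Neurotrophic factors, which nerves of the bladder take up, were low in level throughout. Of 20 factors and receptors tested, 5 were called lower and 2 higher, against 12.0% and 7.59% of all genes. With 1 library left out these counts were as low as 2 lower (without day-14 replicate 1 or 3) and 1 higher. Bdnf, brain-derived neurotrophic factor, had 6.45, 16.6 and 25.5 CPM and then 3.53, 8.29 and 2.8 CPM against 0.310 ± 0.0965 CPM (SD, n = 3) in controls, and its call at adjusted p = 0.049 was lost in 9 of the other settings, with adjusted p up to 0.19 without day-7 replicate 3 and 0.11 to 0.15 without day-7 replicate 2 or day-14 replicate 1 or 3. Without any single control it was 0.064 to 0.070. Lif, a cytokine that nerves and smooth muscle respond to, fell from 3.04, 6.29 and 25.8 to 1.78, 1.34 and 1.81 CPM, and by 1.49 in place of 2.83 on the log2 scale without day-7 replicate 3. The call of Lif was lost when only the libraries of days 7 and 14 were fitted (adjusted p = 0.052). The receptor Ntrk2 fell from 32.2, 10.7 and 13.1 to 3.35, 4.64 and 1.74 CPM (log2 fold change -2.52 ± 0.55) and Gfra1, a receptor for glial-derived factor, rose from 10.0, 10.5 and 9.34 to 22.4, 14.7 and 20.5 CPM (0.95 ± 0.16).

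Macrophage genes fell in part. Of 22 tested, 8 were called lower and none higher, against 12.0% and 7.59% of all genes. The list's median log2 fold change was -0.71, and its median log2 ratio to controls was 1.78 at day 7 and 1.18 at day 14. Csf1r, the receptor for macrophage colony-stimulating factor, had 255, 224 and 175 CPM at day 7, 104, 126 and 113 CPM at day 14 and 105 ± 8.53 CPM (SD, n = 3) in controls (log2 fold change -0.93 ± 0.18, adjusted p = 0.0056). Mrc1, the mannose receptor of tissue macrophages, fell from 275, 431 and 299 to 137, 177 and 153 CPM, and Laptm5, a lysosomal protein of leukocytes, from 72.6, 80.2 and 69.6 to 50.2, 43.9 and 53.6 CPM. Cd68, a pan-macrophage marker, had 85.1, 94.2 and 90.2 CPM and then 28.9, 58.1 and 70.3 CPM and did not pass (log2 fold change -0.78 ± 0.26, adjusted p = 0.058). Day-14 replicate 3 was its highest day-14 library, and without it Cd68 was called (log2 fold change -1.03, adjusted p = 0.025). The summed macrophage markers were 1394, 2071 and 2961 CPM at day 14, 2719 to 3649 CPM at day 7 and 751 to 894 CPM in controls. The count of members called lower ranged from 3 (without day-7 replicate 2 or day-14 replicate 1) to 11 (with the replicate block) in the other settings, and was 4 without day-7 replicate 3.

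The remaining leukocyte lists had few calls, against 19.5% of all genes. No gene was called among 18 T and NK cell genes, 7 B and plasma cell genes, 8 MHC class II genes and 27 interferon response genes, and DESeq2 called none of them either. At an unadjusted edgeR p under 0.05, 1 T and NK cell gene was higher and 2 were lower, 1 B cell gene and 2 interferon genes were higher, and no MHC class II gene passed. Without day-14 replicate 1, 7 of the 27 interferon genes were called higher, and without day-7 replicate 3 or day-14 replicate 3, 1 T and NK cell gene was called lower. The lists' median log2 ratios to controls at day 7 and day 14 were 1.20 and 1.36 for T and NK cells, 1.27 and 1.15 for MHC class II, and 1.17 and 1.35 for interferon. Cd74, the invariant chain of MHC class II, had 1002, 667 and 578 CPM at day 7, 716, 650.3 and 605 CPM at day 14 and 260.3 ± 8.18 CPM (SD, n = 3) in controls (log2 fold change -0.19 ± 0.24, adjusted p = 0.63).

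The neutrophil level at day 14 rested on 1 library: the list's median log2 fold change of 0.85 was -1.57 without day-14 replicate 3, where 4 genes in place of 1 were called lower, and its median log2 ratio to controls at day 14 was 1.81 in place of 4.53. S100a8, a calprotectin subunit, had 0.403, 2.78 and 2.24 CPM at day 7 and 0.182, 0.447 and 20.2 CPM at day 14, so that replicate 3 alone lay above day 7 (log2 fold change 1.94 ± 1.31, adjusted p = 0.33, and -2.49, adjusted p = 0.11, without that library). Csf3r, the receptor for granulocyte colony-stimulating factor, had 7.88, 14.2 and 18.5 CPM and then 4.99, 3.64 and 64.7 CPM, and without replicate 3 it was called lower (log2 fold change -1.64, adjusted p = 0.043). The 1 neutrophil gene called was Mpo, a granule enzyme of immature cells: 159 reads at day 7 and 7 at day 14, a ratio of 21.0 (95% exact interval 9.96 to 53.1). That call was lost without day-7 replicate 1 or day-14 replicate 1 or 2 (with an adjusted p of 0.057 to 0.071). In the plot of marker sums per library, day-14 replicate 3 has the highest neutrophil sum.

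**Figure D4:**
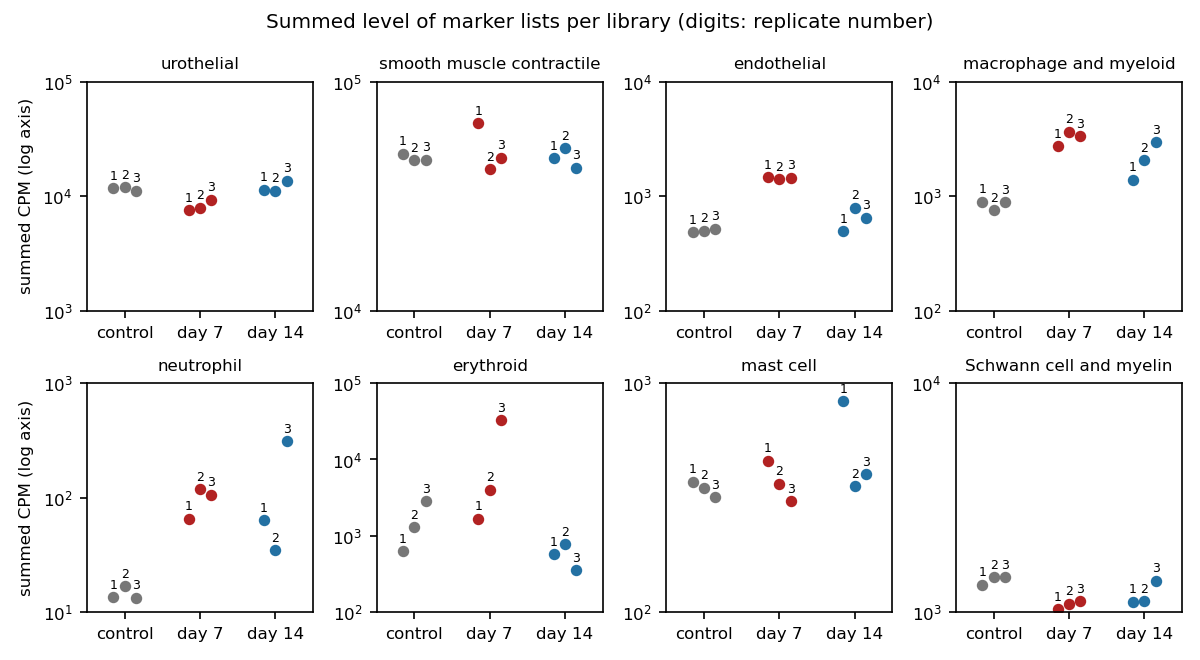
Summed CPM of 8 marker lists per library on a log axis (3 libraries each in control, day 7 and day 14; digits give the replicate number). Endothelial markers sum to 1404 to 1469 CPM at day 7 and 495 to 793 CPM at day 14, while the neutrophil sum of 313 CPM in day-14 replicate 3 and the erythroid sum of 32890 CPM in day-7 replicate 3 stand alone.

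Secreted inflammatory signals were variable between libraries. Of 38 chemokines, cytokines and related genes tested, 4 were called lower and 2 higher, against 12.0% and 7.59% of all genes. Without day-14 replicate 3, 8 were called lower and the list's median log2 fold change of 0.33 became -0.78, and 4 were called higher without day-14 replicate 1 and 1 without any single control, day-7 library or day-14 replicate 3. Ptgs2, the inducible cyclooxygenase, had 19.5, 65 and 155 CPM at day 7 and 18.7, 13.1 and 12.8 CPM at day 14, close to the controls at 16.4 ± 2.63 CPM (SD, n = 3). Its log2 fold change was -2.42 ± 0.54 (adjusted p = 0.01), and -1.49 without day-7 replicate 3, its highest library. With only the libraries of days 7 and 14 fitted, Ptgs2 was not called (adjusted p = 0.054). Arg1, arginase, fell from 10.6, 25.2 and 15.1 to 2.58, 7.67 and 5.59 CPM, a call lost without day-7 replicate 2 (adjusted p = 0.060). Cxcl12, a homing signal, fell from 216, 162 and 201 to 99.2, 79.9 and 118 CPM, below the control mean of 254 ± 59 CPM, and Cx3cl1 (fractalkine) rose from 38.8, 25.7 and 31.2 to 52, 85 and 76 CPM, above 36.4 ± 5.42 CPM in controls. Ccl2, the monocyte attractant, had 7.19, 15.8 and 26.3 CPM and then 5.17, 2.92 and 28.9 CPM and was not called (log2 fold change -0.41, adjusted p = 0.73), yet it was called lower without day-14 replicate 3 (-2.01, adjusted p = 0.028). Il6 had 0.0733, 1.74 and 10.5 CPM and then 0.0728, 0 and 1.59 CPM. It was not called (adjusted p = 0.19) except without day-14 replicate 3 (adjusted p = 0.047), and its values are uncertain because the table's model of Kmt2c, with 163 times as many reads, spans it on the same strand. In the complement list 7 of 22 were called lower, against 12.0% of all genes, with 2 called without day-7 replicate 2, 3 without day-7 replicate 1 or day-14 replicate 1 and 12 by DESeq2. The 7 included Cfi, the complement I protease, from 4.22, 13.4 and 14.2 to 1.49, 2.54 and 2.73 CPM, and Cfd, also a fat cell product, from 119, 39.7 and 39.1 to 11.4, 18.9 and 12.3 CPM (log2 fold change -1.46 in place of -2.21 without day-7 replicate 1). The models of Cfi and Cfd overlap those of Mcub and Arhgap45, which leaves their share of reads uncertain.

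Of 12 mast cell genes, Cma1 (chymase) was called lower and Gata2 higher, against 12.0% and 7.59% of all genes. Without day-14 replicate 3, 2 were called higher. Gata2, a transcription factor of mast cells and also of other cells of the wall, rose from 171, 152 and 175 to 294, 263 and 233 CPM (log2 fold change 0.67 ± 0.13, adjusted p = 0.0061). Cma1 went from 48.4, 26.4 and 16.6 to 10.7, 12.4 and 15.4 CPM, and its call was lost without day-7 replicate 1 (log2 fold change -0.73, adjusted p = 0.068) or day-14 replicate 1 or 2 (with an adjusted p of 0.060 to 0.082). Mcpt1, a protease of mucosal mast cells, had 3.37, 1.04 and 0.145 CPM at day 7 and 92.4, 0.275 and 0.673 CPM at day 14. It was high in day-14 replicate 1 alone and did not pass (adjusted p = 0.1, and log2 fold change -1.67 without that library), and reads may be shared among the closely related proteases of this family.

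Endothelial markers fell in 14 of 17 genes tested, with none higher and a median log2 fold change of -1.12. The list's median log2 ratio to controls was 1.60 at day 7 and 0.35 at day 14. Vwf, von Willebrand factor, had 152, 119 and 147 CPM at day 7, 20.2, 54 and 25.7 CPM at day 14 and 21.8 ± 2.75 CPM (SD, n = 3) in controls (log2 fold change -2.07 ± 0.39, adjusted p = 0.0047). Its day-14 replicate 2 was the highest of that day yet below all of day 7. Erg, a transcription factor of vessel lining, fell from 23, 22.1 and 27.1 to 5.53, 9.9 and 7.4 CPM, and Sox18, which directs vessel growth, from 27.4, 33.5 and 25.2 to 4.84, 9.32 and 5.59 CPM. The receptor Tie1 fell by 1.31 ± 0.23 and Egfl7, a vessel matrix protein, by 1.33 ± 0.17 on the log2 scale. Their adjusted p were 0.0028 and 6.2e-04, and the number called in the list was 10 to 15 in the other settings.

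Genes of the bladder lining rose in part. Of 28 urothelial genes tested, 10 were called higher and none lower (2 lower without day-7 replicate 1 or day-14 replicate 3), against 7.59% of all genes called higher, with a median log2 fold change of 0.56. Their median log2 ratio to controls was -0.50 at day 7 and 0.05 at day 14, and their sum rose from 7535 to 9342 CPM at day 7 to 11210 to 13650 CPM at day 14, against 11210 to 11990 CPM in controls. Pparg, a nuclear receptor of urothelial differentiation, had 105, 83.3 and 112 CPM at day 7, 229.7, 224 and 262 CPM at day 14 and 194 ± 9.06 CPM (SD, n = 3) in controls. The groups were well apart, with a log2 fold change of 1.25 ± 0.12 (adjusted p = 1.9e-04). Tp63, the factor of basal cells, rose from 78.8, 98.7 and 94.9 to 217, 206 and 153 CPM, and Ehf, an epithelial ETS factor, from 186, 175 and 196 to 359.9, 342 and 308 CPM. The adhesion molecule Epcam rose from 325, 292 and 361 to 821, 592 and 689 CPM, above 479.6 ± 32.2 CPM in controls (log2 fold change 1.10 ± 0.17, adjusted p = 0.0015).

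Uroplakins and keratins were less uniform than these factors. Upk1b, a plaque protein of the surface membrane, rose from 577, 553 and 676 to 1009, 869 and 869.5 CPM (log2 fold change 0.61 ± 0.13, adjusted p = 0.0072). Upk2, its neighbour in the plaque, had 567, 707 and 841 CPM and then 794, 1014 and 682 CPM, groups that overlapped (log2 fold change 0.24, adjusted p = 0.4). Krt5, a basal keratin, had 69.7, 212 and 124 and then 49.3, 188 and 159.5 CPM, and Krt20, a surface cell keratin, 18.3, 24.1 and 38.6 and then 21.2, 33.4 and 26.8 CPM. Both keratins overlapped between the days (adjusted p = 0.97 and 0.99), and Krt20 was below the control mean of 67.4 ± 10.1 CPM in every library of both days. The tight junction protein Cldn4 had 165, 171 and 237 CPM and then 394, 249 and 939 CPM. Its log2 fold change of 1.47 was 0.76 without day-14 replicate 3, and the call was lost without day-7 replicate 1 or 2 (adjusted p 0.055 and 0.074).

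Contractile smooth muscle genes showed few calls: 2 of 25 lower and 1 higher, against 12.0% and 7.59% of all genes, with a median log2 fold change of 0.07. Without day-7 replicate 1, 6 were called higher, without day-14 replicate 2, 5 were called lower, and without day-7 replicate 3 or day-14 replicate 1 or 3 none was called lower. Pln, phospholamban, which restrains the calcium pump, rose from 76, 33.5 and 27.4 to 131, 140.1 and 139 CPM, against 176 ± 31.5 CPM (SD, n = 3) in controls (log2 fold change 1.58 ± 0.34, adjusted p = 0.0084). Its model lies within that of Cep85l on the other strand, and the sources used here do not say whether counting used strand. The focal adhesion protein vinculin (Vcl) fell from 1382, 1205 and 1486 to 826, 887 and 909 CPM and the integrin Itga8 from 106, 186 and 269 to 22, 82.2 and 57.9 CPM, above 7.93 ± 1.53 CPM in controls. Leaving out day-7 replicate 1 or 3, or any single day-14 library, ended the call of Vcl (adjusted p 0.058 to 0.097). For Itga8 the same held of day-7 replicates 2 and 3 and day-14 replicates 1 and 3 (adjusted p 0.071 to 0.11). Myh11, smooth muscle myosin, had 8880, 4638 and 4636 CPM and then 9364, 8016 and 8295 CPM. Acta2, smooth muscle actin, had 4712, 3079 and 3852 CPM and then 2499, 3140 and 2430 CPM. Neither was called (adjusted p = 0.29 and 0.11). Desmin (Des) had 5628, 4009 and 5094 CPM and then 2480, 3509 and 2709 CPM, did not overlap and missed the threshold (log2 fold change -0.76 ± 0.25, adjusted p = 0.054), and was called without day-14 replicate 2 (adjusted p = 0.049), by DESeq2 (0.019), with either other filter (0.046) and in the fit of the 6 libraries (0.047).

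Receptors for stretch and for transmitters did not move together. Of 35 tested, 9 were called lower and 3 higher, against 12.0% and 7.59% of all genes. The number higher was 6 without day-7 replicate 1 and 1 without day-7 replicate 2 or day-14 replicate 1. Piezo2, a mechanically gated channel, fell from 148, 198 and 234 to 24.1, 41.5 and 29 CPM, with 18.9 ± 1.85 CPM (SD, n = 3) in controls (log2 fold change -2.62 ± 0.30, adjusted p = 3.6e-04). Piezo1, the related channel of lining and vessels, fell less, from 229.6, 263 and 270.3 to 155, 175 and 193 CPM (log2 fold change -0.54 ± 0.11). Trpv4, a stretch-sensitive channel of the urothelium, rose from 23.5, 23.8 and 16.8 to 59.1, 62.3 and 46.2 CPM, with 56.2 ± 3.43 CPM in controls (log2 fold change 1.39 ± 0.16, adjusted p = 3.4e-04). The endothelin receptor Ednra fell from 76.3, 67.4 and 51.9 to 22.7, 31.3 and 36.2 CPM and was still above 12.3 ± 0.792 CPM in controls. Oxtr, the oxytocin receptor, was called lower with 504 reads at day 7 and 6 at day 14, but nearly all came from day-7 replicate 1 (16.9, 0.695 and 0.796 CPM). Without that library it was not called (log2 fold change -3.32, adjusted p = 0.12), nor without day-14 replicate 1 or 3 (adjusted p 0.083 and 0.068).

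The receptors through which drugs act on the detrusor did not pass in edgeR's fit of all libraries. The muscarinic receptor Chrm2 had 73.5, 59.8 and 57.9 CPM at day 7 and 72.6, 70.7 and 67.3 CPM at day 14 (log2 fold change 0.14 ± 0.25). Chrm3, which triggers contraction, had 19.4, 8.66 and 10.0 and then 27.1, 19.7 and 17.4 CPM (log2 fold change 0.75 ± 0.39, adjusted p = 0.2). The ATP-gated channel P2rx1 had 599, 195 and 220.4 and then 565, 469.5 and 383 CPM, and the relaxing beta receptor Adrb3 2.38, 0.834 and 0.543 and then 3.86, 2.27 and 2.9 CPM. Day-7 replicate 1, the library with the most contractile RNA, was the highest day-7 library for all 4. Without it P2rx1 (log2 fold change 1.19, adjusted p = 0.020) and Adrb3 (2.12, adjusted p = 0.0032) were called higher. With all libraries Adrb3 was also called by DESeq2 (adjusted p = 0.024) and with the replicate block (0.030).

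Genes of resting fibroblasts split. Of 18 tested, 5 were called lower and 3 higher, against 12.0% and 7.59% of all genes. The number higher was 1 without day-7 replicate 3 or day-14 replicate 3. Gsn, gelsolin, which severs actin, rose from 742, 512 and 457 to 1995, 2189 and 2159 CPM, still under 3371 ± 346 CPM (SD, n = 3) in controls (log2 fold change 1.89 ± 0.24, adjusted p = 5.3e-04). The Wnt-binding proteins Sfrp4 and Sfrp1 fell: Sfrp4 from 87.9, 184 and 78.3 to 1.6, 9.76 and 3.36 CPM and Sfrp1 from 148, 369.8 and 309 to 24.1, 65 and 49.3 CPM. Pdgfra, the receptor that marks fibroblasts, fell from 255, 299 and 216 to 119.5, 173 and 119 CPM, below 207 ± 18.6 CPM in controls (log2 fold change -0.91 ± 0.17). Myoc, myocilin, was not called at 3.48, 0.765 and 0.869 and then 3.42, 2.75 and 4.07 CPM against 25.5 ± 7.08 CPM in controls, except without day-7 replicate 1 (log2 fold change 2.06, adjusted p = 0.011). None of 10 mesothelial genes, which mark the outer surface, was called by edgeR or by DESeq2, and 1 was higher at an unadjusted edgeR p under 0.05 (1 was called higher without day-14 replicate 1).

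Nerve-related lists had a few calls in both directions, where 7.59% of all genes were called higher and 12.0% lower. Of 18 Schwann cell genes, 4 were called higher and 2 lower (2 higher without day-7 replicate 2 or 3, day-14 replicate 2 or 3 or control replicate 3, and 1 lower without any single day-14 library or control replicate 3), and of 11 genes of autonomic nerve 2 were called in each direction, against 0 to 3 higher and 0 to 2 lower in the other settings (none in either direction without day-7 replicate 2 or day-14 replicate 1). The adhesion molecule Ncam1, which Schwann cells and activated muscle carry, fell from 193, 251 and 260.4 to 62.9, 80.6 and 83.5 CPM, with 76.6 ± 4.09 CPM (SD, n = 3) in controls (log2 fold change -1.63 ± 0.23, adjusted p = 8.3e-04). Mal, a raft protein of myelin that epithelium also makes, rose from 369, 359.8 and 424 to 651, 553 and 824 CPM. Mbp, myelin basic protein, rose from 17.6, 20.4 and 20.1 to 23.2, 26.6 and 28.5 CPM (log2 fold change 0.43 ± 0.11, adjusted p = 0.017). Its call was lost when only the libraries of days 7 and 14 were fitted (adjusted p = 0.067). Cell bodies of the nerves that reach the bladder lie largely outside it, so most of their RNA is not sampled here.

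Detoxifying enzymes rose in part. Of 27 genes of xenobiotic metabolism tested, 10 were called higher and 1 lower, against 7.59% and 12.0% of all genes, with a median log2 fold change of 0.72, and their median log2 ratio to controls was -0.96 at day 7 and -0.57 at day 14. Besides Cyp1a1, the repressor Ahrr, another target of the aryl hydrocarbon receptor, rose from 7.59, 6.4 and 6.19 to 17.8, 23.8 and 11 CPM (log2 fold change 1.38 ± 0.32, adjusted p = 0.012). The aldehyde dehydrogenase Aldh3a1 rose from 2.05, 1.63 and 0.688 to 5.13, 5.91 and 3.36 CPM but was far below 34.2 ± 6.65 CPM (SD, n = 3) in controls. Ephx1, epoxide hydrolase, rose from 102, 68.7 and 77.8 to 131, 147 and 132 CPM. The glucuronosyltransferases Ugt1a1 (log2 fold change 0.88) and Ugt1a6 (0.93) also rose, but these models share exons and how reads were split between them is uncertain.

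Lipid genes mixed fat cell and general functions. Of 23 tested, 7 were called lower and 2 higher, against 12.0% and 7.59% of all genes. Without day-7 replicate 1 these counts were 3 and 4, without day-14 replicate 1, 3 were called lower, and the number called higher was 1 without day-7 replicate 2 and 4 without day-14 replicate 2. Angptl4, an inhibitor of lipoprotein lipase, fell from 27.9, 31.4 and 27.1 to 4.7, 11.3 and 11.2 CPM, the fatty acid carrier Cd36 from 56.5, 41.4 and 43.4 to 10.4, 22.9 and 13.8 CPM and the hormone-sensitive lipase Lipe from 49.5, 40.8 and 38.1 to 19.9, 26.3 and 20.6 CPM. Cpt1a, the gate of fatty acid oxidation, rose from 318, 338 and 351 to 476, 436 and 524 CPM (log2 fold change 0.51 ± 0.12, adjusted p = 0.014). Sterol synthesis had 1 call in 22 (lower), mitochondrial respiration 1 in 24 (Sdha, higher) and ribosome biogenesis 1 in 20 (Npm1, lower). Without day-14 replicate 2, 4 sterol genes were called higher, and without day-7 replicate 1 or day-14 replicate 3, 3 ribosome genes were called lower.

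Lists of stress and secretion had counts that moved with single libraries. In the endoplasmic reticulum list 5 of 22 were called lower, against 12.0% of all genes, with 10 without day-7 replicate 1, 2 without day-7 replicate 2 and 3 without day-7 replicate 3 or day-14 replicate 1. The calls included the retrieval receptor Kdelr3 (66.3, 93.9 and 96.7 and then 25, 37.6 and 47.6 CPM) and Creb3l1, a factor that drives collagen secretion (104, 165 and 184 and then 65.7, 84.6 and 84.8 CPM). Among 24 immediate early genes, 3 were called lower, near the 12.0% of all genes, with 8 without day-7 replicate 1, and 2 were called higher without day-7 replicate 3. Klf2, a factor of vessels under flow, fell from 51.5, 53.4 and 70.3 to 17.1, 25.4 and 22 CPM, and Egr2 from 13, 21.5 and 48.1 to 4.84, 2.1 and 6.73 CPM. The phosphatase Dusp1 lost its call without day-7 replicate 3 (log2 fold change -0.81, adjusted p = 0.091) or day-14 replicate 1 or 2 (adjusted p 0.078 and 0.052). Among 23 genes of glycolysis and hypoxia, 5 were called higher and 2 lower, against 7.59% and 12.0% of all genes. The number higher was 2 or 3 without any single library other than day-14 replicate 2 (4). The number lower was 6 without day-7 replicate 1 and 5 without day-14 replicate 3. Egln3, an oxygen sensor, rose from 12, 8.9 and 9.52 to 33.2, 18.3 and 24.7 CPM, whereas Gapdh and Eno1, glycolytic enzymes, fell by 0.65 and 0.59 on the log2 scale. The calls of Gapdh and Eno1 were lost without day-7 replicate 2 or 3 or day-14 replicate 1 or 2 (with an adjusted p of 0.079 to 0.12). Gapdh is often used as a reference gene in other assays.

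Where 5 or fewer members of a list were called, most of those not yet named are given here, chosen after their values were seen. Among rises they were Tgfa, Cntfr, Il1a, P2ry1, Tacr2, Pla2g2a, Abca8a, Cdh19, Scn7a, Uchl1, Syt1, Dgat2, Sdha, Npas2, Hk2, Ndrg1 and Ankrd37, the last 2 of which overlap genes on the opposite strand. Among falls they were Ngfr, Il10, Mfap5, Lum, Tubb3, Snap25, Aldh1a2, Pdia6, Sec61b, Kdelr2 and Npm1. Lum, the collagen-binding proteoglycan lumican (log2 fold change -0.95 ± 0.19), and Tgfa, an epithelial growth factor (0.80 ± 0.18), stayed called whichever library was left out. Tgfa was not called when only the libraries of days 7 and 14 were fitted (adjusted p = 0.0501). Ngfr, the low-affinity neurotrophin receptor, was lost without day-7 replicate 1 (log2 fold change -0.79, adjusted p = 0.16) and without any single day-14 library. Il10, an anti-inflammatory cytokine, was lost without day-7 replicate 3 (adjusted p = 0.053), and Pla2g2a, a secreted phospholipase, without day-7 replicate 1 or 3 or day-14 replicate 3 (adjusted p 0.075 to 0.11). Every other gene of this paragraph was lost without day-7 replicate 2 (adjusted p 0.052 to 0.15), many of them also without others. Il1a, an interleukin of damaged epithelium, had 0.147, 0.0348 and 0.290 CPM at day 7 and 0.655, 0.172 and 16.4 CPM at day 14, and its log2 fold change of 5.17 was 1.38 without day-14 replicate 3 (adjusted p = 0.45).

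Clock genes had 5 of 19 called higher and none lower, against 7.59% of all genes, but none was called higher without day-7 replicate 2 or day-14 replicate 1, 1 without day-7 replicate 3 and 3 without day-14 replicate 2. Nr1d1, the receptor REV-ERB alpha, had 62.7, 36.6 and 33.6 CPM at day 7 and 93.3, 85.1 and 98.1 CPM at day 14, Nr1d2 66.9, 58.7 and 54.9 and 101, 81.3 and 82.2 CPM, Hlf 3.37, 2.05 and 1.92 and 10.8, 4.47 and 5.06 CPM, and Clock 127, 142 and 144 and 187, 183 and 178 CPM. In all 4 the day-14 libraries lay above those of day 7, as in 1314 of the 1343 genes called higher. Nr1d1 overlaps Thra, and its share of reads is uncertain. Each of these 4 calls was lost without at least 3 of the libraries: Nr1d1, Nr1d2 and Hlf were lost without day-7 replicate 2 or 3 or day-14 replicate 1, Nr1d1 also without day-14 replicate 3, and Clock without day-7 replicate 1 or 2 or day-14 replicate 1 or 2 (with an adjusted p of 0.062 to 0.10). The hour at which tissue was taken is not in the labels.

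**Figure D5:**
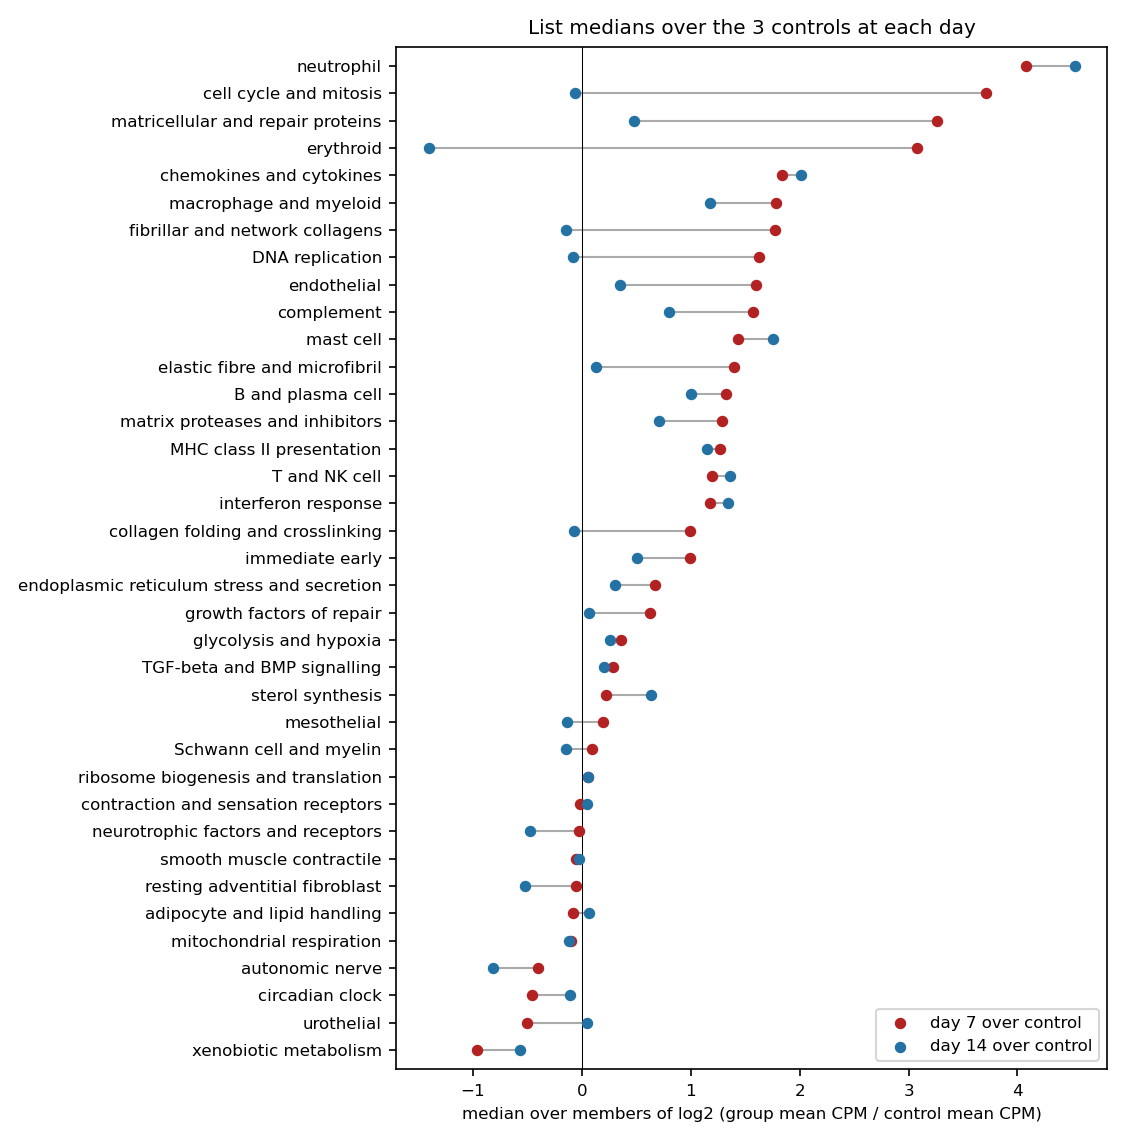
For each of 37 gene lists, the median over tested members of the log2 ratio of mean CPM to the control mean, at day 7 (red) and day 14 (blue). Mitosis moves from 3.71 to -0.06 and collagens from 1.77 to -0.15, while neutrophil (4.08 and 4.53, or 1.81 at day 14 without its replicate 3), chemokine (1.84 and 2.02, or 0.87) and interferon lists (1.17 and 1.35) stand above the controls at both days.

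Set against the controls, the lists thus fell into kinds. Over all genes tested the median log2 ratio was -0.01 at day 7 and 0.00 at day 14, from the same 3 control libraries. Mitosis, DNA replication, collagens, collagen folding and elastic fibre lists were between -0.15 and 0.13 at day 14. Matricellular, endothelial and complement lists stood between 0.35 and 0.80, and macrophage, T and NK cell, mast cell, MHC class II, interferon, chemokine and neutrophil lists at 1.15 or more. The interferon median was 0.94 without day-14 replicate 2. Those of T and NK cells and macrophages were 1.04 and 1.06 without day-14 replicate 3. Those of MHC class II and mast cells were 1.09 and 1.07 without day-14 replicate 1. Without day-14 replicate 3, which carried most of the neutrophil level, the day-14 medians of the neutrophil and chemokine lists were 1.81 and 0.87 in place of 4.53 and 2.02. The interval had been named for resolution. The mitosis, DNA replication, collagen, collagen folding and elastic fibre lists fell to medians near the control level, though single members such as Col1a1 did not. The medians of the matricellular list (0.48) and of the matrix proteases and inhibitors (0.71) were still above it at day 14. The T and NK cell, MHC class II, interferon and neutrophil lists had few genes called. Their medians, like that of the macrophage list, stood above the controls on both days. T and NK cell genes summed to 100 to 205 CPM at day 7, 95.2 to 116 CPM at day 14 and 84.8 to 91.9 CPM in controls. The B and plasma cell medians of 1.32 and 1.01 over 7 genes tested were 0.27 and 0.83 over the 14 tested without day-14 replicate 1.

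The study was designed around long noncoding RNAs. Of 1573 lncRNA and lincRNA genes tested, 99 were called higher (6.29%) and 56 lower (3.56%), against 7.86% and 13.3% of 15285 protein-coding genes. The following RNAs were chosen after their values had been seen, as the called noncoding genes of highest level or smallest p. H19, an imprinted RNA of growing tissue (chromosome 1, 215744404 to 215747080), had 79.1, 70.7 and 88.4 CPM at day 7, 4.91, 7.74 and 10.2 CPM at day 14 and 3.23 ± 1.78 CPM (SD, n = 3) in controls. It lies inside a long model of Cttn on the same strand, so its share of reads is uncertain. Its groups were far apart, with a log2 fold change of -3.38 ± 0.45 (adjusted p = 6.7e-04). The gene listed as RGD1566401, whose current symbol is Meg3, another imprinted RNA (chromosome 6, 133658937 to 133691130), fell from 66.3, 70.3 and 85.8 to 7.75, 13.3 and 14 CPM, below 18.4 ± 1.8 CPM in controls (log2 fold change -2.66 ± 0.23, adjusted p = 1.2e-04).

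A group of 3 abundant lincRNA models lies side by side on the minus strand of chromosome 1, between 221151827 and 221158792, and all 3 rose. ENSRNOG00000062155.1 had 1261, 1072 and 938 CPM at day 7 and 1589, 1494 and 1730 CPM at day 14, ENSRNOG00000062127.1 1687, 1780 and 1325 and 2538, 2516 and 2866 CPM, and ENSRNOG00000062158.1 302, 333 and 206 and 536, 442 and 488 CPM. Their log2 fold changes were 0.56, 0.72 and 0.80, and the call of the first was lost without day-7 replicate 2 or 3 (adjusted p 0.054 and 0.056). LOC102550527 rose from 11.2, 6.99 and 6.81 to 32.1, 19.8 and 24.4 CPM (log2 fold change 1.61 ± 0.22, adjusted p = 7.7e-04). LOC102554092 rose from 3.59, 5.08 and 3.91 to 14.6, 10.4 and 12.3 CPM, but lies within Bcas3 on the opposite strand, which has 4.67 times as many reads.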

How the data were processed

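The authors' table gives, per gene, raw read counts and TPM values (scaled by library and gene length) for each library, as deposited. HISAT2 2.1.0, HTSeq 0.11.2 and bcl2fastq appear in the submitters' processing notes with build rn6 and no roles, and the strand setting of the counting is not given. Counts were the basis of every test, and the deposited TPM served only to compare levels between genes.

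All 12 libraries were fitted in edgeR 4.0.16 (R 4.3.3) with TMM scaling, filterByExpr (minimum count 10, total 15) and the quasi-likelihood test of day 14 against day 7. P-values were adjusted by Benjamini-Hochberg over all genes tested, and calls were made at 0.05. The code was run on simulated counts with known changes and the same spread in every gene. No simulated library stood apart, so that run does not cover the calls that rest on single libraries here. CPM used TMM-scaled library sizes.

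Named genes were the 12 largest rises and falls (called, absolute log2 fold change of at least 1, mean of at least 5 CPM, no overlap between groups), up to 4 members per list by smallest p, and a short list by name; some of these genes are not reported here. Members and lists were chosen with earlier results of these data known. Alternatives were DESeq2 1.42.0, RLE scaling, 2 other filters, a fold threshold, a fit of the 6 libraries and a replicate block. Each library of control, day 7 and day 14 was also left out in turn, and no day-28 library was left out. Controls and day 28 entered the filter, the scaling and the shared spread, and neither entered the contrast. Promoters came from RefSeq (GRCr8), and were matched by gene ID for 12479 of the 12502 found and otherwise by symbol, without using rn6 coordinates.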

Additional observations from a re-analysis of the deposited data

How the results depend on the processing

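The count of genes called, 3457 (1343 higher, 2114 lower), was 2195 (708 and 1487) when only the libraries of days 7 and 14 were fitted and 1470 (301 and 1169) when calls also had to reach a log2 fold change of 1 in either direction. The fit of days 7 and 14 alone also lost calls for which only losses without a library are given above, such as Cldn4 (adjusted p = 0.075) and Cma1 (0.071). DESeq2 called 4303 genes (1817 and 2486). Leaving out 1 library at a time gave 1959 (without day-7 replicate 2) to 3431 (without day-7 replicate 1) genes called, with 643 to 1349 higher and 1316 to 2082 lower. RLE scaling and both other filters gave 2969 to 3457 genes. The groups share replicate numbers, but the numbers did not pair the samples: correlations of deviations between same-numbered day-7 and day-14 libraries were 0.151, -0.015 and 0.148, and day-7 replicate 2 correlated best with day-14 replicate 3. With the replicate block 3662 genes were called (1470 higher, 2192 lower).

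Of 205 genes named, 180 were called, 121 of them in every setting in which they were tested (14 or 15), and 59 lost the call in at least 1. The list medians without a library were added after the data had been seen. The direction changed for 9 genes, none of them called with all libraries, and only where a library was left out. Over those settings the log2 fold change of Cd74 ran from -0.33 to 0.085, of S100a8 from -2.49 to 2.51, of Csf3r from -1.64 to 1.37, of Ccl2 from -2.01 to 0.11, of Mcpt1 from -1.67 to 5.70, of Krt5 from -0.37 to 0.46, of Krt20 from -0.20 to 0.38, of Peg3 from -0.24 to 0.21 and of Lig1 from -0.56 to 0.13. The cause was not tested. Genes at a few CPM (Trh, Oxtr, Mpo, Il6, Il10) are limited by read number.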

Other observations

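Imprinted genes, which are expressed from 1 parental copy and many of which act on fetal growth, were looked up after H19 and Igf2 had been seen among the falls. The genes below were chosen with their values known, so their number is no measure of the class. Igf2, a fetal growth factor, had 53.1, 31.3 and 34.2 CPM at day 7, 10.9, 9.14 and 13.8 CPM at day 14 and 22.1 ± 4.96 CPM (SD, n = 3) in controls (log2 fold change -1.81 ± 0.30, edgeR adjusted p = 0.0023). Mest, a hydrolase of mesoderm, fell from 24.2, 14.2 and 14.7 to 2.26, 0.963 and 1.7 CPM, with 0.832 ± 0.456 CPM in controls (-3.43 ± 0.67). Dlk1, a membrane protein of precursor cells, fell from 0.623, 2.57 and 2.39 to 0.146, 0.344 and 0.390 CPM, with 0.759 ± 0.0993 CPM in controls (-2.65 ± 0.55). Like Dio3 and RGD1566401 (Meg3), which lie near it on chromosome 6, Dlk1 had no day-14 library above its lowest day-7 library. Ndn, necdin, fell by 1.22 ± 0.18 on the log2 scale (adjusted p = 0.0012).

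The opposite direction was seen in Cdkn1c, an inhibitor of cell division, which rose from 12.7, 8.94 and 7.46 to 38.2, 35.1 and 23.2 CPM, with 42.9 ± 22.2 CPM in controls (log2 fold change 1.73 ± 0.39, edgeR adjusted p = 0.011). Grb10, an adaptor that dampens insulin signals, was called lower (log2 fold change -0.95, adjusted p = 0.024), but not without day-7 replicate 2 or 3 or day-14 replicate 1 or 3 (with an adjusted p of 0.055 to 0.091). Peg3 (80.4, 46.7 and 45.1 and then 46.2, 54.8 and 57.9 CPM), Plagl1 (-0.57 ± 0.24) and Sgce (0.27 ± 0.15) were not called, and Plagl1 was called lower without day-7 replicate 1 (log2 fold change -0.80, adjusted p = 0.020). The models of Igf2, H19 and Cdkn1c lie inside a long model of Cttn on the same strand in the authors' table, so how reads were divided there is uncertain.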
